A study of Mus musculus with 4 samples.

Results

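Expression of 10 genes that carry adrenergic signals in the cardiomyocyte was followed across genotype, surgery and cardiomyocyte population in single-nucleus RNA sequencing (snRNA-seq) of neonatal mouse hearts. The genes were chosen by symbol from the 22574 genes of the deposited count matrix, and all 10 were found: the receptors Adrb1, Adra1a and Adra1b, the adenylyl cyclases Adcy5 and Adcy6, the phosphodiesterases Pde3a, Pde4b and Pde4d, the anchoring protein gene Akap6 and Prkaca, which encodes a catalytic subunit of protein kinase A (PKA). Over all nuclei their counts of unique molecular identifiers (UMIs, 1 for each captured RNA molecule) ran from 84 for Adra1a to 40996 for Pde4d, which ranked 47 among all genes. Pde4b, with 40764 UMIs, ranked 48, Akap6 ranked 67 and Pde3a ranked 258.

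The libraries were made to compare cardiomyocyte populations of the regenerating heart with and without Nrf1, a transcription factor that the gene Nfe2l1 encodes. Pups carrying loxP-flanked Nrf1 alleles (Nrf1fl/fl, the WT label) or the same alleles with a Cre recombinase under the cardiomyocyte promoter aMHC (Nrf1fl/fl:aMHC-Cre, the KO label) had ligation of the left anterior descending artery (myocardial infarction, MI) or Sham surgery at postnatal day 3, and tissue was taken 1 day later. The 4 libraries are called WT-Sham, KO-Sham, WT-MI and KO-MI, 1 library each, and every library pooled tissue below the ligation plane from 4 to 6 hearts. The control animals therefore also carried the loxP-flanked alleles, Cre was absent from them, and only cardiomyocyte nuclei were kept in the deposited matrix. The protocol text gives a C57BL/6 background, while the strain labels read C57BL/8 for WT-Sham, C57BL/9 for KO-Sham, C57BL/6 for WT-MI and C57BL/7 for KO-MI. With 1 library per group there is no replicate check on any difference and no test was made. Each value describes the libraries compared, and its exact 95% interval covers counting error only.

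In the cardiomyocyte, noradrenaline and adrenaline bind β-adrenergic receptors, which act through the stimulatory G protein on adenylyl cyclase to make cyclic AMP (cAMP). cAMP activates PKA, which phosphorylates calcium channels, phospholamban and sarcomere proteins and so raises the rate and force of contraction. Phosphodiesterases break cAMP down, and anchoring proteins hold PKA and phosphodiesterases together, so that the signal stays local. The α1-adrenergic receptors couple instead to Gq and phospholipase C and are known for their part in cardiomyocyte growth.

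The matrix held 8585 nuclei, and library totals ran from 4984625 to 9106522 UMIs. Per library, 1098 to 2619 nuclei had the deposited label CM1 (which holds CM1 and CM3 together), 27 to 124 CM2, 118 to 351 CM4 and 89 to 355 CM5, and 9 nuclear barcodes were shared between libraries. All 7 cardiomyocyte markers were detected in every library and population, at a summed level of 33538 to 34852 counts per 1000000 UMIs (CPM) in CM1. The 5 injury genes Ankrd1, Xirp2, Flnc, Nppb and Myh7 summed to 1648 CPM in CM5 of WT-Sham, 1810 CPM in KO-Sham, 9446 CPM in WT-MI and 9857 CPM in KO-MI. In CM1 their sum was 664, 699, 3088 and 3534 CPM in the same order, so CM5 was above CM1 in each library. A label transferred from an earlier reference was also deposited, and it read CM2 in 73.1% of the CM5 nuclei and CM5 in 71.6% of the CM2 nuclei. The population names used here are the final labels. Of the markers of other cells, the fibroblast list summed to 895 to 1047 CPM in CM1, and the myeloid list to 90.6 and 72.3 CPM in CM1 of WT-Sham and KO-Sham against 487 and 232 CPM in WT-MI and KO-MI. The mural list, whose gene Abcc9 cardiomyocytes also express, summed in CM1 to 403 and 336 CPM in WT-Sham and KO-Sham and to 217 and 216 CPM in WT-MI and KO-MI. The part of these markers in the surgery comparisons was not tested. The targeted gene Nfe2l1 stood in CM1 at 61.4 CPM (95% interval 54.1 to 69.4) in WT-Sham, 53.3 CPM (48.2 to 58.9) in KO-Sham, 44.1 CPM (38.9 to 49.9) in WT-MI and 57.7 CPM (51.4 to 64.5) in KO-MI. In CM1 the library labelled KO-MI was thus above the library labelled WT-MI for the deleted gene, against its label. In CM5 they stood at 57.0 CPM (80 UMIs) in KO-MI and 54.8 CPM (81 UMIs) in WT-MI. In CM4 KO-MI was the lower, at 32.0 CPM (11 UMIs, 16.0 to 57.3) against 61.7 CPM (26 UMIs, 40.3 to 90.4), and in CM2 also, at 31.0 CPM (9 UMIs) against 54.4 CPM (14 UMIs), with overlapping intervals in each of these 3 populations. After Sham surgery Nfe2l1 in CM5 stood at 36.2 CPM (23 UMIs) in KO-Sham and 79.9 CPM (26 UMIs) in WT-Sham. The log2 ratio of KO-Sham over WT-Sham there was -1.14 (-2.02 to -0.28). KO-Sham was also the lower in CM4 (41.1 against 55.6 CPM) and CM2 (39.5 against 62.2 CPM), where the intervals of the ratio included no change. Which part of the gene the Cre removes is not given in the sources used here, so a count over the whole gene need not fall, and each genotype difference below is between labels.

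Reads in introns were counted, so levels of different genes are compared here per kilobase (kb) of annotated gene span on GRCm38. On that scale Adrb1, the main β-adrenergic receptor of the cardiomyocyte, stood highest in CM1, with a median over the 4 libraries of 6.44 CPM per kb (lowest 4.74, highest 8.63) over a span of 10.9 kb at chr19:56722199-56733113. Prkaca followed at 4.32 CPM per kb (3.80 to 4.54; chr8:83972993-83996443) and Adcy6 at 4.25 CPM per kb (3.94 to 5.92; chr15:98589973-98610076). Below them came Pde4b at 3.03 CPM per kb (2.57 to 3.42; chr4:102087543-102607259), Akap6 at 2.63 (1.87 to 3.27; chr12:52699383-53155599) and Pde3a at 1.83 (1.46 to 2.58; chr6:141249269-141507448). Pde4d, the longest member with a span of 1504 kb at chr13:108449948-109953461, stood at 1.02 CPM per kb (0.88 to 1.27), although it had the most UMIs. Adra1b at 0.96 CPM per kb (0.80 to 1.28; chr11:43774606-43901210) and Adcy5 at 0.82 CPM per kb (0.69 to 0.89; chr16:35154877-35305738) were close to it. Adra1a, at chr14:66635251-66771168, was last with 0.025 CPM per kb (0.0089 to 0.034). The ranges over libraries of Adrb1 and Prkaca did not overlap, nor did those of Adcy6 and Pde4b, of Pde3a and Pde4d, or of Adcy5 and Adra1a, while the other neighbours in this order overlapped. Whether UMIs rise in proportion to span was not tested, and without the division by span the order differs. In CPM the CM1 medians were 1576 for Pde4b, 1536 for Pde4d, 70.2 for Adrb1 and 3.46 for Adra1a. No other protein-coding gene overlaps a member, but noncoding genes overlap Adcy5, Adcy6, Pde3a, Pde4d and Akap6, and the use of strand in the counting is not given in the sources used here.

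**Figure D1:**
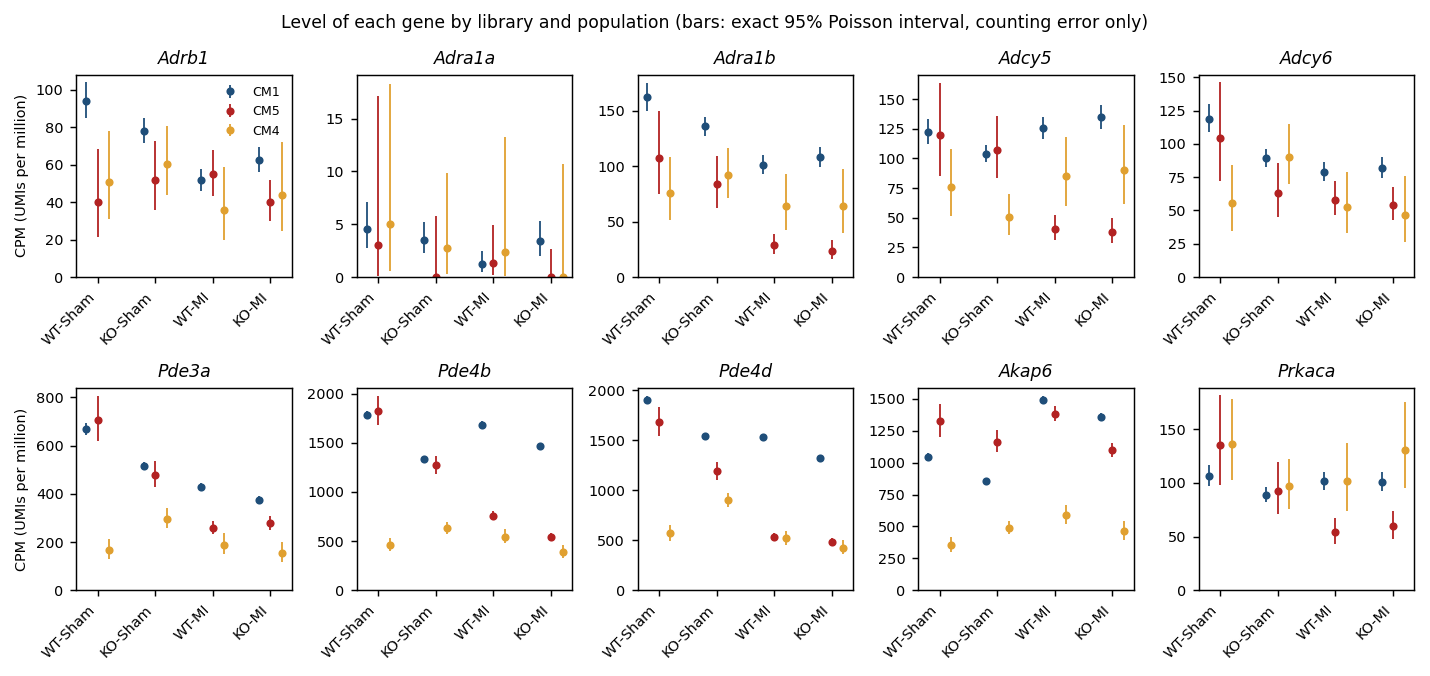
Level of each of the 10 genes in CPM of UMIs (vertical axis, linear from 0, its own range for each gene) in the 4 libraries (horizontal axis), with 1 point for the sum of each of CM1, CM5 and CM4; bars are exact 95% Poisson intervals of the counts. In CM5 Adra1b, Adcy5, Pde4b and Pde4d are low in both MI libraries, while Akap6 in CM1 is highest in WT-MI (1492 CPM).

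Promoter windows (250 bases before to 50 bases after an annotated start; RefSeq, GRCm38.p6) were at hand for 7 of the 10 genes, 12 windows in all, and were searched on both strands for letters that bear on cAMP signalling or on Nrf1. The full cAMP response element TGACGTCA, which contains the shorter element TGACG on each strand, was in 0 of the 12 windows and in 1.79% of the 32851 windows of all genes. The shorter element TGACG was in 3 of the 12 windows (20.8% of all windows) and the core of the antioxidant response element, TGACNNNGC, the kind of element that Nrf1 binds, also in 3 of the 12 (12.4% of all windows). The first 4 of the windows with a match are printed 5′ to 3′ on the gene's strand to show where the letters stand, with matches on either strand in capitals. Adrb1 (chr19:56721867-56722166, plus strand) has 1 shorter element, Adcy5 (chr16:35154614-35154913, plus strand) has 1 antioxidant core, Pde4b (chr4:102421305-102421604, plus strand) has 1 of each, and Prkaca (chr8:83972728-83973027, plus strand) has 2 shorter elements. A match is a description of the letters only.
Adrb1: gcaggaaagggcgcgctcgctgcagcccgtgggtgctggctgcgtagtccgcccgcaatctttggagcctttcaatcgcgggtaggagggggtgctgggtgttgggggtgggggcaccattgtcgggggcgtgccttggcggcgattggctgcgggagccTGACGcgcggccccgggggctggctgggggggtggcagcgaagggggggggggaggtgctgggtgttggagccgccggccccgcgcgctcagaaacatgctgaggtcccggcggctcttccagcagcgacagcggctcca
Adcy5: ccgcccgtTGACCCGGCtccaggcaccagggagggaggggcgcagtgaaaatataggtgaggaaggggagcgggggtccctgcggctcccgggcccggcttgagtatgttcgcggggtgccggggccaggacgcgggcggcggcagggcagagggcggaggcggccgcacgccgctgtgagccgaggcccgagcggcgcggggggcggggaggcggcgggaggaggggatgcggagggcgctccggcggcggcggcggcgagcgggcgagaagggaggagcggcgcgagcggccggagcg
Pde4b: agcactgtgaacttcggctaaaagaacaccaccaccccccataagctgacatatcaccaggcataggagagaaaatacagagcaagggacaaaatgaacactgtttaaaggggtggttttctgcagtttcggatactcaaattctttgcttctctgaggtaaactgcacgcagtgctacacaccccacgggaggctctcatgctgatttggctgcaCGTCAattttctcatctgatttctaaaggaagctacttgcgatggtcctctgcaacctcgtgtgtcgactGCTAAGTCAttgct
Prkaca: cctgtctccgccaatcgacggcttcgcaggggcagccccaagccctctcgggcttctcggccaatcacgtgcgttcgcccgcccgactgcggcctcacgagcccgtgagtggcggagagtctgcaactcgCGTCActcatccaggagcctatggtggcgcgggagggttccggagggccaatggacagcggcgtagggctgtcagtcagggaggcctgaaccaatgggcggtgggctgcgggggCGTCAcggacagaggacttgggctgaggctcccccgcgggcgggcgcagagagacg

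After MI, CM1 nuclei of the WT label held less RNA of both measured classes of receptor, of Adcy6 and of Pde3a than after Sham surgery, and more of Akap6. Adrb1 stood at 94.2 CPM in WT-Sham and 51.7 CPM in WT-MI, a log2 ratio of -0.86 (95% interval -1.09 to -0.64). In the KO label it stood at 78.1 CPM in KO-Sham and 62.4 CPM in KO-MI, a log2 ratio of -0.32 (-0.52 to -0.13). Both MI libraries were thus below both Sham libraries, and the 2 surgeries lay farther apart under the WT label. Adra1b, the α1-adrenergic subtype with most of the α1 counts here, showed the same order. It stood at 162 CPM in WT-Sham, 136 CPM in KO-Sham, 101 CPM in WT-MI and 108 CPM in KO-MI, with MI over Sham log2 ratios of -0.68 (-0.84 to -0.52) in the WT label and -0.33 (-0.48 to -0.18) in the KO label. The other α1 subtype, Adra1a, was near its floor, with 19 UMIs in WT-Sham, 26 in KO-Sham, 7 in WT-MI and 18 in KO-MI. It made up 2.75%, 2.54%, 1.18% and 3.04% of the UMIs of both subtypes in these sums. The Adra1a ratio of WT-MI over WT-Sham was -1.92 (-3.42 to -0.61) and that of KO-MI over KO-Sham was -0.07 (-1.02 to 0.85), so the second is not distinguishable from 0 at this depth. In the whole KO-MI library 26.3% of its UMIs came from 1 nucleus.

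The 2 cyclases, which make cAMP from ATP and are the main cardiac isoforms, differed in CM1. Adcy6 stood at 119 CPM in WT-Sham, 89.2 CPM in KO-Sham, 79.1 CPM in WT-MI and 81.7 CPM in KO-MI. Its MI over Sham log2 ratio was -0.59 (-0.77 to -0.40) in the WT label and -0.13 (-0.30 to 0.05) in the KO label. WT-Sham was the 1 high library for Adcy6, and the other libraries lay between 79.1 and 89.2 CPM. Adcy5 stood at 122 CPM in WT-Sham, 104 CPM in KO-Sham, 126 CPM in WT-MI and 135 CPM in KO-MI, with ratios of 0.04 (-0.13 to 0.20) and 0.37 (0.22 to 0.52). As a share of the UMIs of both cyclases, which does not depend on library scaling, Adcy5 made up 50.7% (47.6 to 53.8) in WT-Sham and 53.8% (51.2 to 56.5) in KO-Sham, against 61.4% (58.5 to 64.1) in WT-MI and 62.2% (59.3 to 65.0) in KO-MI. Both MI shares were above both Sham shares, and their intervals did not overlap those of the Sham libraries.

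Among the phosphodiesterases, Pde3a, whose product hydrolyses cAMP and is inhibited by cGMP, was lower after MI under both labels, and the cAMP-specific Pde4b and Pde4d differed by less. Pde3a stood at 667 CPM in WT-Sham, 517 CPM in KO-Sham, 429 CPM in WT-MI and 376 CPM in KO-MI, with MI over Sham log2 ratios of -0.64 (-0.72 to -0.56) and -0.46 (-0.54 to -0.38). Pde4d stood at 1904, 1542, 1530.2 and 1322 CPM in the same order, with ratios of -0.32 (-0.36 to -0.27) and -0.22 (-0.27 to -0.18). Pde4b stood at 1778, 1335, 1683 and 1468 CPM, with ratios of -0.08 (-0.12 to -0.04) and 0.14 (0.09 to 0.18). The sign of Pde4b thus differed between the labels, by an amount far below 1.5-fold, and with the nuclei of all populations summed its ratio in the KO label was -0.04. Akap6, which anchors PKA and phosphodiesterase at the nuclear envelope, was higher after MI under both labels. It stood at 1047 CPM in WT-Sham, 853 CPM in KO-Sham, 1492 CPM in WT-MI and 1354 CPM in KO-MI, with ratios of 0.51 (0.46 to 0.56) and 0.67 (0.62 to 0.72). Both MI libraries were above both Sham libraries. Prkaca, the kinase subunit itself, stood at 106, 89.0, 102 and 101 CPM, with ratios of -0.06 (-0.24 to 0.12) and 0.18 (0.01 to 0.35).

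A gene was counted as past the fold where its ratio was at least 1.5-fold and the smaller sum would hold at least 10 UMIs if the levels were equal. For WT-MI over WT-Sham in CM1, 5 of the 10 genes were past the fold and all of these were lower (Adrb1, Adra1a, Adra1b, Adcy6 and Pde3a), beside 23.8% of all genes in either direction and 14% lower. The members' median log2 ratio was -0.45, against -0.07 over all genes measured. When libraries were scaled by TMM factors, Adcy6 and Pde3a were just under the fold and 3 members remained past it, and with nuclei thinned to 1000 UMIs the count was also 3. For KO-MI over KO-Sham, 1 of the 10 was past the fold (Akap6, higher), beside 23.9% of all genes, with a median of -0.10 against 0.03. The difference between the labels was not tested, and both comparisons have libraries of unequal depth, with a median of 3749 UMIs per CM1 nucleus in WT-Sham, 2632 in KO-Sham, 4042 in WT-MI and 4043.5 in KO-MI.

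**Figure D2:**
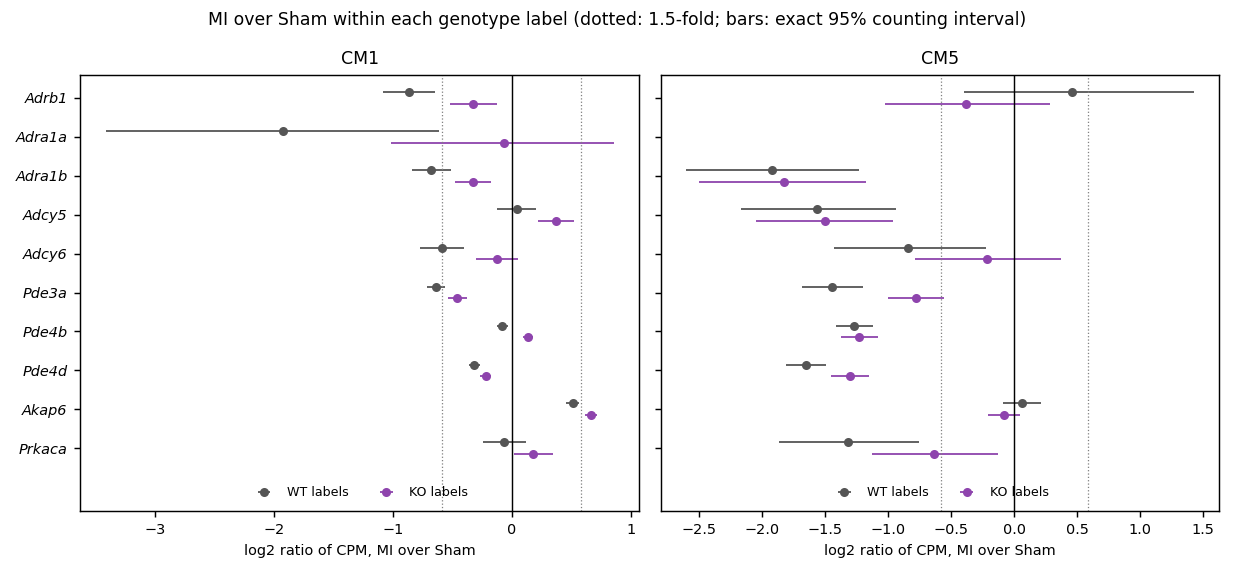
Log2 ratio of CPM of MI over Sham (horizontal axis) for each gene in CM1 and CM5, within the WT label and the KO label; bars are exact 95% counting intervals and dotted lines mark 1.5-fold. In CM1 Akap6 lies to the right and Adrb1, Adra1b and Pde3a to the left of 0 under both labels; in CM5 the bars of 6 genes lie wholly to the left of 0 under both labels, while those of Akap6 and Adrb1 cross it.

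In CM5, the population with the highest injury-gene sum, the members stood farther apart between the surgeries than in CM1, and most were lower after MI. Adra1b stood at 108 CPM (35 UMIs) in WT-Sham and 83.4 CPM (53 UMIs) in KO-Sham, against 28.4 CPM (42 UMIs) in WT-MI and 23.5 CPM (33 UMIs) in KO-MI. It was 3.79-fold lower in WT-MI than in WT-Sham (log2 ratio -1.92, 95% interval -2.60 to -1.23) and 3.55-fold lower in KO-MI than in KO-Sham (-1.83, -2.50 to -1.17). Adcy5 stood at 119.9, 107, 40.6 and 37.7 CPM in WT-Sham, KO-Sham, WT-MI and KO-MI, 2.95-fold lower (-1.56, -2.17 to -0.94) and 2.84-fold lower (-1.50, -2.05 to -0.96) after MI. For both genes the MI libraries lay below the Sham libraries with no overlap of their intervals. Pde4d stood at 1682, 1191, 535 and 482 CPM in that order, 3.15-fold lower (-1.65, -1.81 to -1.49) in the WT label and 2.47-fold lower (-1.31, -1.46 to -1.15) in the KO label. Pde4b stood at 1823, 1272, 756 and 543 CPM, 2.41-fold (-1.27, -1.42 to -1.12) and 2.34-fold (-1.23, -1.37 to -1.08) lower. Pde3a stood at 707, 478, 259.9 and 278 CPM, 2.72-fold (-1.44, -1.68 to -1.20) and 1.72-fold (-0.78, -1.00 to -0.56) lower. All 3 phosphodiesterases were thus lower in each MI library than in either Sham library. Prkaca stood at 135, 92.9, 54.1 and 59.8 CPM, 2.50-fold lower (-1.32, -1.87 to -0.76) and 1.55-fold lower (-0.63, -1.13 to -0.13). Adcy6 stood at 105, 63.0, 58.2 and 54.1 CPM, with a ratio of -0.84 (-1.43 to -0.23) in the WT label and -0.22 (-0.79 to 0.37) in the KO label, so only WT-Sham was high.

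Akap6 and Adrb1 did not follow the rest in CM5. Akap6 stood at 1325 CPM in WT-Sham, 1165 CPM in KO-Sham, 1382 CPM in WT-MI and 1099.7 CPM in KO-MI, with MI over Sham ratios of 0.06 (-0.09 to 0.21) and -0.08 (-0.21 to 0.05). Adrb1 stood at 40.0 CPM (13 UMIs), 51.9 CPM (33 UMIs), 54.8 CPM (81 UMIs) and 39.9 CPM (56 UMIs), with ratios of 0.46 (-0.40 to 1.43) and -0.38 (-1.03 to 0.29), a depth at which neither direction nor size can be read. Adra1a had at most 2 UMIs in any CM5 sum, and the 0 of KO-Sham allows up to 4.72 CPM and that of KO-MI up to 2.14 CPM (a count of 3 UMIs). Of the 9 members measured, 7 were past the fold for WT-MI over WT-Sham, all lower, beside 40.9% of all genes in either direction and 19.7% lower. Alternatives run in CM5 after the data were seen gave 3 with nuclei thinned to 1000 UMIs and 5 within the most frequent transferred label. For KO-MI over KO-Sham 6 of 9 were past the fold, all lower, beside 42.5% of all genes and 17.7% lower. The members' medians were -1.32 and -0.78, against 0.01 and 0.10 over all genes. Other features of these nuclei moved with the surgery as well: the injury genes as given above, the cardiomyocyte list (34930 and 34758 CPM in WT-Sham and KO-Sham, 24716 and 24657 CPM in WT-MI and KO-MI), and the share with the transferred label CM2 (58.4% and 58.1% after Sham, 79.1% and 80.8% after MI). Within the nuclei of that 1 transferred label, the ratio of WT-MI over WT-Sham was -2.19 for Adra1b, -1.53 for Adcy5, -1.71 for Pde4d, -1.40 for Pde4b and 0.03 for Akap6. For KO-MI over KO-Sham the same nuclei gave -1.43, -1.59, -1.37, -1.42 and -0.19. The part of the injury genes and of the lower cardiomyocyte sum in these ratios was not tested.

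Compared within each library, CM5 stood below CM1 for most members, and more so in the MI libraries. Of the 9 members measured, 2 were past the fold in WT-Sham, beside 15.2% of all genes in either direction and 10.3% lower, and 2 in KO-Sham, beside 12.1% and 7.76%. In WT-MI 6 were past it, beside 29.7% and 17.5%, and in KO-MI 7, beside 30% and 16%, so the shares over all genes were also higher in the MI libraries. Each of these members was lower in CM5. The members' median log2 ratios were -0.03, -0.11, -0.91 and -0.75 in WT-Sham, KO-Sham, WT-MI and KO-MI, against -0.02, -0.02, -0.04 and 0.03 over all genes. Adra1b was lower in CM5 in 4 of 4 libraries, with a median log2 ratio of -1.27 (from -0.59 in the least to -2.20 in the most), and Pde4d likewise, with a median of -0.91 (-0.18 to -1.52). These were the 2 of 9 members that went the same way in every library with a median past the fold, beside 10.1% of all genes in either direction and 7.42% lower. The count was 4 with TMM factors and 4 with equal weight per nucleus. Adcy6 was also lower in 4 of 4 libraries, by a median of -0.47 that did not reach the fold. The medians of Adrb1 (-0.62), Adcy5 (-0.83), Pde4b (-0.61) and Pde3a (-0.27) came from 3 of 4 libraries below CM1. Akap6 (median 0.11, -0.30 to 0.45) and Prkaca (-0.35, -0.91 to 0.35) were below CM1 in 2 of 4. The populations were clustered from these same nuclei, so the ratios describe the clusters.

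**Figure D3:**
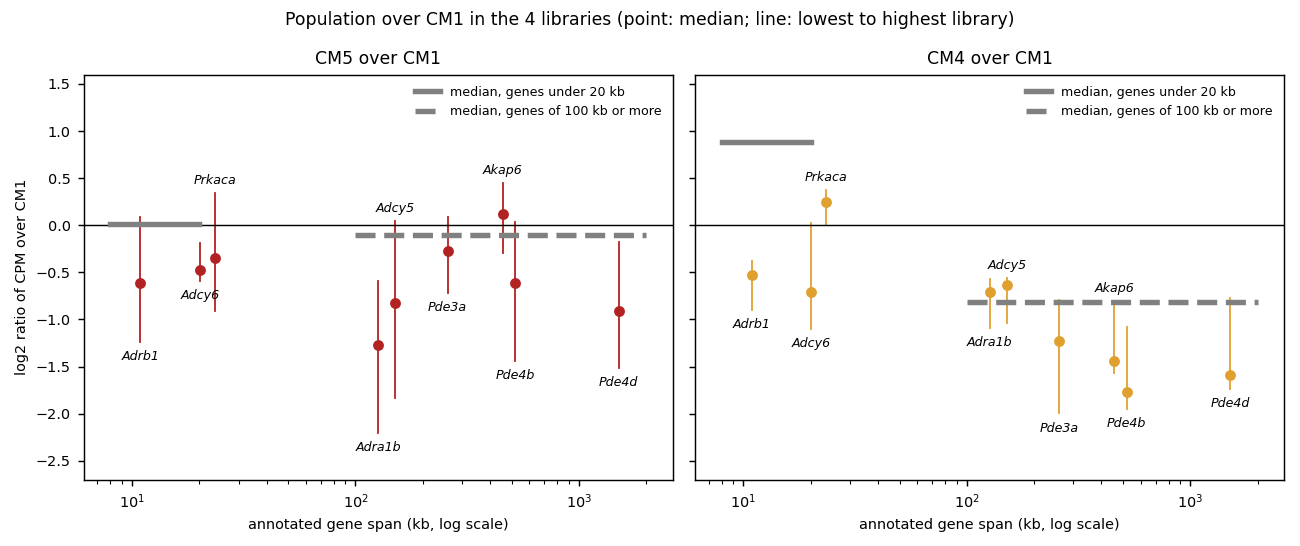
Log2 ratio of CPM of CM5 over CM1 and of CM4 over CM1 (vertical axis) against annotated gene span in kb (horizontal axis, log scale) for the 9 measured genes; points are medians over the 4 libraries, thin lines run from the lowest to the highest library, and grey bars are the medians of all measured genes under 20 kb and of 100 kb or more. In CM5 Adra1b lies lowest (-1.27) and Akap6 highest (0.11); in CM4 the medians of Pde3a, Akap6, Pde4d and Pde4b lie lowest (-1.23 to -1.77) and that of Prkaca highest (0.24).

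Ratios of pairs of members within 1 sum set the scaling aside. Akap6 as a share of the UMIs of Akap6 and Pde4d, a pair chosen after its values were seen, was 35.5% (95% interval 34.6 to 36.3) in CM1 of WT-Sham and 35.6% (34.9 to 36.3) in KO-Sham, against 49.4% (48.6 to 50.1) in WT-MI and 50.6% (49.8 to 51.4) in KO-MI. In CM5 the shares were 44.1% (40.9 to 47.2), 49.4% (46.9 to 52.0), 72.1% (70.4 to 73.8) and 69.5% (67.6 to 71.4). Both MI shares thus lay above both Sham shares in both populations and also in CM4 (38.4% and 35.2% after Sham, 53.0% and 52.1% after MI). In CM5 the shares also differed between the labels, with intervals that overlapped after each surgery. As the pair was chosen after its values were seen, this order describes these sums only. The share of Adcy5 in both cyclases went the other way in CM5 than in CM1. In CM5 it was 53.4% (41.4 to 65.2) in WT-Sham and 63.0% (53.1 to 72.1) in KO-Sham, and 41.1% in both WT-MI (33.0 to 49.5) and KO-MI (32.5 to 50.1). The interval of WT-Sham overlapped those of both MI libraries and that of KO-Sham did not, so the lower share after MI is not resolved under the WT label. The share of Pde4d in Pde4d and Pde4b was 51.7% (50.9 to 52.5) and 53.6% (52.9 to 54.3) in CM1 of WT-Sham and KO-Sham, above the 47.6% (46.9 to 48.3) of WT-MI and 47.4% (46.6 to 48.2) of KO-MI with no overlap of intervals. In CM5 it was 48.0%, 48.4%, 41.4% and 47.0%, with WT-MI the 1 low library. Pde3a as a share of Pde3a and Pde4d was 25.9%, 25.1%, 21.9% and 22.1% in CM1, lower after MI. In CM5 it was 29.6% (26.4 to 32.9), 28.7% (25.9 to 31.5), 32.7% (30.03 to 35.5) and 36.6% (33.7 to 39.6), so the intervals of the WT label overlapped and KO-MI lay above both Sham libraries, although the level of Pde3a itself was lower after MI. Such shares show unequal change of 2 genes and not which gene moved.

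**Figure D4:**
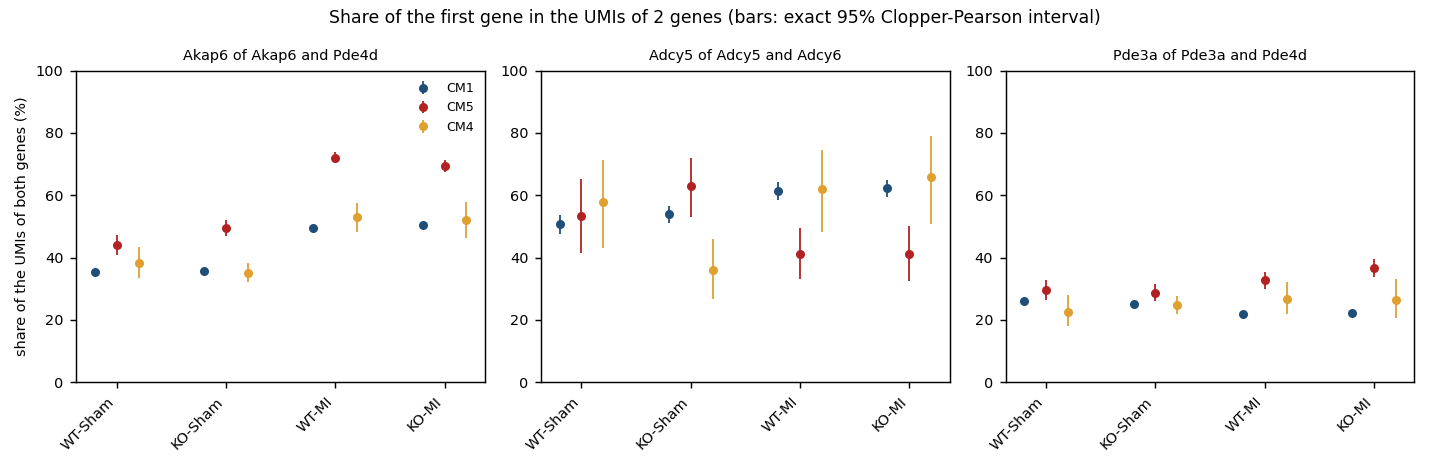
Share of the first gene in the summed UMIs of each pair (vertical axis, percent) by library and population; bars are exact 95% Clopper-Pearson intervals. The Akap6 share is higher in both MI libraries than in both Sham libraries of CM1, CM4 and CM5, and the Adcy5 share is higher after MI in CM1 and lower in CM5. In CM5 the Adcy5 interval of WT-Sham overlaps those of both MI libraries.

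Between genotype labels the members differed little in size. In CM1 of the Sham libraries all 10 were lower under the KO label, by log2 ratios from -0.23 for Adcy5 to -0.42 for Adcy6, and for 9 of them the interval excluded 0. The shares of all genes that were lower, or whose interval excluded 0, were not counted. The long phosphodiesterases had the narrowest intervals, with -0.41 (-0.46 to -0.37) for Pde4b, -0.37 (-0.44 to -0.30) for Pde3a and -0.30 (-0.35 to -0.26) for Pde4d. Akap6 was at -0.30 (-0.35 to -0.24), Adrb1 at -0.27 (-0.46 to -0.08), Adra1b at -0.25 (-0.40 to -0.11) and Prkaca at -0.26 (-0.43 to -0.08). None of the 10 was past the fold, beside 12.8% of all genes. The members' median was -0.30, against -0.11 over all genes and -0.23 over the 1851 measured genes that span 100 kb or more, as 7 of the 10 members do. Over the 4986 measured genes that span under 20 kb, as Adrb1 does, the median was 0.06. Without the shares over all genes, the 10 lower members cannot be called unusual. The KO-Sham library was also shallower per nucleus, as given above, and its CM1 nuclei had a median of 8.78% mitochondrial UMIs against 6.13% in WT-Sham. In nuclei of at least 3000 UMIs, a setting chosen after the data were seen, the ratios were -0.30 for Pde4b, -0.21 for Pde4d, -0.15 for Akap6 and -0.55 for Adcy6.

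In CM1 of the MI libraries the order was mixed. Pde4b at -0.20 (-0.24 to -0.15), Pde4d at -0.21 (-0.26 to -0.17), Pde3a at -0.19 (-0.27 to -0.10) and Akap6 at -0.14 (-0.19 to -0.10) were lower under the KO label, as they were after Sham surgery. Adrb1 was higher, at 0.27 (0.04 to 0.50), so that its ratio had opposite signs after the 2 surgeries. For Adra1b at 0.09 (-0.07 to 0.26), Adcy5 at 0.10 (-0.05 to 0.25), Adcy6 at 0.05 (-0.15 to 0.24) and Prkaca at -0.01 (-0.19 to 0.16) the interval included 0. Only Adra1a was past the fold (1.49, 0.16 to 2.99, from 18 against 7 UMIs), so 1 of 10 stood beside 8.27% of all genes, and the members' median was 0.02, as over all genes (0.02).

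In CM5 the Sham libraries gave 1 of 9 members past the fold, beside 20.7% of all genes: Adcy6 at -0.73 (-1.43 to -0.03), from 34 and 40 UMIs. Within the most frequent transferred label this count was 3. Pde3a (-0.56), Pde4b (-0.52), Pde4d (-0.50) and Akap6 (-0.19) were also lower under the KO label with intervals that excluded 0. Between the MI libraries 0 of 9 was past the fold, beside 14.3% of all genes. Pde4b at -0.48 (-0.61 to -0.34) and Akap6 at -0.33 (-0.43 to -0.23) were lower in KO-MI than in WT-MI. For these 2 genes KO-MI was the lowest of the 4 libraries in CM5, although its interval for Akap6 overlapped that of KO-Sham. The members' medians in CM5 were -0.50 for Sham and -0.15 for MI, against -0.08 and 0.07 over all genes.

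**Figure D5:**
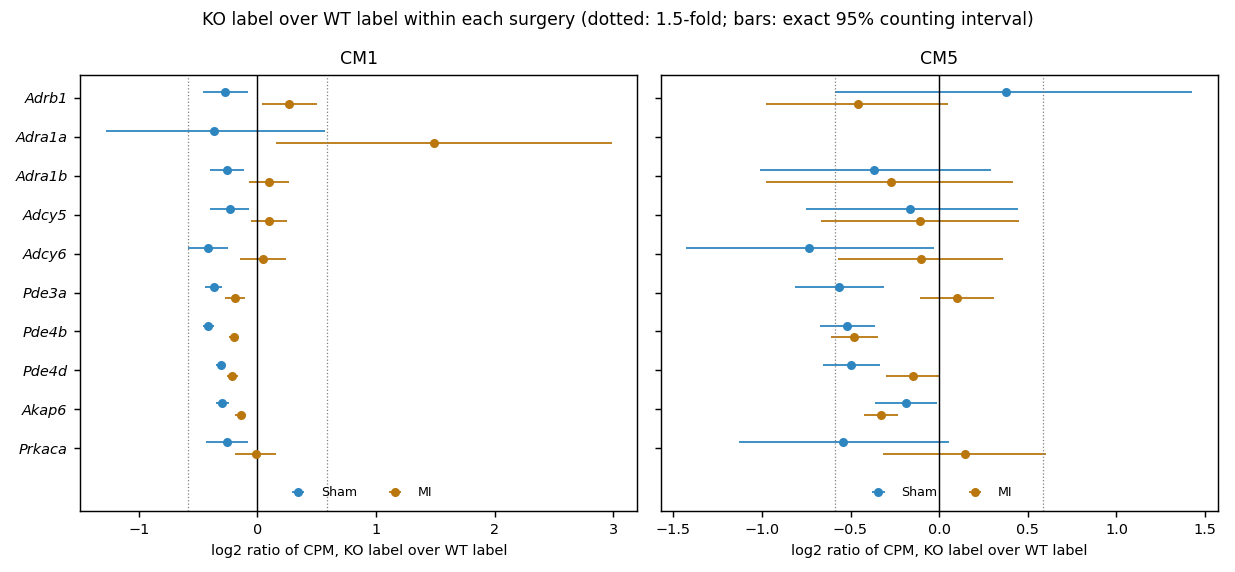
Log2 ratio of CPM of the KO label over the WT label (horizontal axis) for each gene in CM1 and CM5, within Sham and within MI; bars are exact 95% counting intervals and dotted lines mark 1.5-fold. In CM1 all Sham points lie to the left of 0, and the MI points of Adrb1 and Adra1a lie to its right with their whole bars, while those of Adra1b (0.09), Adcy5 (0.10) and Adcy6 (0.05) lie to its right with bars that cross 0.

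CM4, the population the study describes as immature and able to enter the cell cycle, had lower levels of the long members than CM1. The median log2 ratio of CM4 over CM1 in the 4 libraries was -1.77 (-1.08 to -1.95) for Pde4b, -1.59 (-0.77 to -1.74) for Pde4d, -1.44 (-0.80 to -1.56) for Akap6 and -1.23 (-0.80 to -2.00) for Pde3a. Adra1b at -0.71 and Adcy5 at -0.63 were also lower in 4 of 4 libraries, as was Adrb1 at -0.53, below the fold. Adcy6 (-0.71) was lower in 3 of 4. Prkaca, which spans 23.5 kb, was the exception, with a median of 0.24 (0.00 to 0.38) and no library below CM1. In all, 6 of 9 members were lower in 4 of 4 libraries with a median past the fold, beside 55.2% of all genes in either direction and 35.2% lower. Of these, Pde3a, Pde4b, Pde4d and Akap6 were past the fold in each single library, while Adra1b was at -0.57 in KO-Sham and Adcy5 at -0.56 in WT-MI and -0.58 in KO-MI. The direction went with gene length over all genes: the median of CM4 over CM1 was -0.81 over the 1169 measured genes that span 100 kb or more, 0.88 over the 1271 that span under 20 kb and -0.38 over all. CM4 nuclei also held fewer UMIs (medians of 1715.5 in WT-Sham, 1859 in KO-Sham, 1852.5 in WT-MI and 2394 in KO-MI) and more mitochondrial UMIs (medians of 9.47% to 14.6%), and red blood cell genes summed to 12805, 7833, 8411 and 3538 CPM against 1891 to 3829 CPM in CM1. The part of these features in the CM4 values was not tested.

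Before any alternative setting, the members past the fold between CM4 libraries all spanned 100 kb or more, apart from Adcy6. That gene spans 20.1 kb and had 16 UMIs in CM4 of KO-MI. Pde4d stood at 569 CPM in WT-Sham, 902 CPM in KO-Sham, 519.8 CPM in WT-MI and 428 CPM in KO-MI, so KO-Sham was the 1 high library. Pde3a (167, 297, 189.9 and 154 CPM) and Pde4b (460.2, 632, 546 and 389.9 CPM) were also highest in KO-Sham. For KO-Sham over WT-Sham, 3 of 9 were past the fold, all higher, beside 27.2% of all genes: Pde3a at 0.83 (0.43 to 1.25), Pde4d at 0.67 (0.44 to 0.89) and Adcy6 at 0.70 (-0.02 to 1.47), whose interval included 0 and whose ratio was -0.09 in nuclei under 10% mitochondrial UMIs. The median over genes of 100 kb or more in this comparison was 0.41 and that over genes under 20 kb was -0.20. These medians were -0.25 and 0.21 for KO-MI over KO-Sham, and 0.49 and -0.21 for WT-MI over WT-Sham. The part of gene length in the calls within CM4 was not tested. For KO-MI over KO-Sham 5 of 9 were past the fold, beside 34.4% of all genes, with Pde4d at -1.08 (-1.34 to -0.82), Adcy6 at -0.96 (-1.84 to -0.15), Pde3a at -0.95 (-1.41 to -0.51) and Pde4b at -0.70 (-0.99 to -0.42) lower and Adcy5 at 0.83 (0.10 to 1.56) higher. Only Akap6 was past the fold for WT-MI over WT-Sham (354 and 586 CPM, 0.73, 0.42 to 1.04), 1 of 9 beside 44.5% of all genes, and 0 of 9 for KO-MI over WT-MI, beside 30.8%. Alternatives run after the data were seen moved these counts in CM4, from 3 to 6 for KO-Sham over WT-Sham within the most frequent transferred label, from 5 to 3 for KO-MI over KO-Sham with thinned nuclei and from 1 to 5 for WT-MI over WT-Sham in nuclei of at least 3000 UMIs. For KO-MI over WT-MI Pde4b at -0.49 (-0.80 to -0.17) and Akap6 at -0.33 (-0.63 to -0.04) were lower in KO-MI. CM2 held 27 to 124 nuclei per library, and 0 of 9 members had the same direction over CM1 in 4 of 4 libraries with a median past the fold, beside 5.4% of all genes. With TMM factors this count was 3. Akap6 (-0.43) and Prkaca (-0.49) were below CM1 in 4 of 4 libraries.

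The rest of the cAMP and α1 pathway was read from 10 lists with 88 further genes. In CM1, 13 of the 69 measured were past the fold for WT-MI over WT-Sham, 4 higher and 9 lower (18.8%), and 10 of 70 for KO-MI over KO-Sham, 9 higher and 1 lower (14.3%). For KO-Sham over WT-Sham 7 of 66 were past it, all lower (10.6%), and for KO-MI over WT-MI 4 of 71, of which 3 were higher (5.63%). All 4 shares, which count both directions, lay below those of all genes in the same comparisons. By direction this need not hold. For KO-Sham over WT-Sham the calls over all genes were 873 higher and 689 lower of 12203, so the lists had the larger share of lower calls. For KO-MI over KO-Sham the calls over all genes were 1472 higher and 1574 lower of 12763. The genes past the fold in the same direction for both surgery comparisons included Prkcd, a protein kinase C downstream of α1 receptors, the cyclase Adcy7 and the cGMP-specific phosphodiesterase Pde9a. Prkcd stood at 7.95, 8.18, 16.6 and 12.8 CPM in WT-Sham, KO-Sham, WT-MI and KO-MI, with MI over Sham ratios of 1.06 (0.47 to 1.68) and 0.64 (0.12 to 1.17). Both MI libraries thus lay above both Sham libraries. Adcy7 (0.63 and 1.14) and Pde9a (0.99 and 0.66) rested on 9 to 26 UMIs per sum, and each interval included 0. For the genotype labels 1 gene was past the fold after both surgeries, the phosphodiesterase gene Pde8b (-0.92 and -1.01), on 10 to 22 UMIs with intervals that included 0.

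The most counted gene of each list is given here beside the members in CM1, and it need not stand for its list. Chrm2, the muscarinic receptor that lowers cAMP through the inhibitory G protein, stood at 499, 639, 655 and 866 CPM in WT-Sham, KO-Sham, WT-MI and KO-MI, higher after MI by 0.39 (0.32 to 0.47) and 0.44 (0.38 to 0.50) and higher under the KO label by 0.36 (0.28 to 0.43) and 0.40 (0.34 to 0.47). Gnas, which encodes the stimulatory G protein, stood at 503, 588, 422 and 478 CPM, lower after MI by log2 ratios of -0.25 (-0.34 to -0.17) and -0.30 (-0.37 to -0.23). Its list of G protein genes had medians of 0.02 and 0.16 in these comparisons, with 0 of 9 genes lower past the fold. Of the receptor list, which holds Chrm2, only 2 of 9 genes were measured. Chrm2 and Gnas were both higher under the KO label after each surgery, unlike the phosphodiesterases. Pde1c, a calmodulin-dependent phosphodiesterase, stood at 915, 753, 714 and 683 CPM, and Rgs6, which speeds the turn-off of inhibitory G proteins, at 750.3, 569, 661 and 578 CPM. Akap13, another anchoring protein, stood at 485, 392, 529.9 and 459 CPM and so was higher in each MI library than in the Sham library of its label, as Akap6 was, by 0.13 (0.05 to 0.21) and 0.23 (0.15 to 0.31). The list of anchoring genes did not rise as a whole, with MI over Sham medians of -0.14 under the WT label and 0.02 under the KO label. Of its 8 measured genes 0 were higher past the fold in either comparison, and 2 were lower under the WT label. The remaining top genes were Adcy9, Pkig, Popdc2, Crebbp and Prkca, none of which was past the fold in any of the 4 comparisons in CM1. In CM5, 13 of the 38 measured genes of the lists were past the fold for WT-MI over WT-Sham, 3 higher and 10 lower (34.2%), and 13 of 47 for KO-MI over KO-Sham, 6 higher and 7 lower (27.7%), both shares below the 40.9% and 42.5% of all genes in either direction. The shares of all genes that were lower past the fold in CM5 were 19.7% and 17.7%. There Pde1c stood at 510.4, 491, 206 and 189 CPM, Rgs6 at 470.5, 321, 193 and 133 CPM and the PKA inhibitor gene Pkig at 234, 148, 72.4 and 89.7 CPM, each lower in both MI libraries. Chrm2 at 526, 573, 593 and 653 CPM was not.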

How the data were processed

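Nuclei from pooled neonatal mouse hearts were sequenced in 4 libraries, 1 per group, and groups were taken from the sample titles. The authors deposited UMI counts per gene and nucleus with no normalization. According to the methods, Cell Ranger (version not given in the sources used here) aligned the reads to a pre-mRNA reference of mm10/GRCm38, which counts introns too, Scrublet doublets were removed, nuclei of 200 to 2500 detected genes were kept, and cardiomyocyte clusters were labelled with Seurat 3. The labels name version 2 of the 10x 3′ kit and the methods another version. The authors also deposited, for each nucleus, its library, its final and transferred population labels and the percent of its UMIs from the mitochondrial genome. These percent values were used as deposited, while 10 further deposited columns with a value for each nucleus were left aside.

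UMIs were summed per library and population and expressed as CPM, with exact 95% Poisson intervals, conditional binomial intervals for log2 ratios and Clopper-Pearson intervals for shares (Python 3.11.15, scipy 1.17.1). A member was measured where the smaller sum would hold at least 10 UMIs at equal CPM. A gene was called past the fold at 1.5-fold, the fold the study used. For its CM4 genes the study also set an adjusted p-value cutoff from a Wilcoxon rank-sum test. Here, with 1 library per group, no test was made. Alternatives were TMM factors (edgeR 4.0.16), a denominator without the 13 mitochondrial genes, equal weight per nucleus, thinning to 1000 UMIs, subsets of nuclei, all nuclei together and minimums of 5 and 20 UMIs. The intervals were run on simulated Poisson counts with no spread between nuclei or libraries, which checks their computation only. All 10 members are named, and of 10 lists of other pathway genes the most counted gene and those past the fold in the same direction in both comparisons of a kind, of which 1 gene is not reported here. The members and lists were chosen with earlier results of these data known. Gene spans are from GENCODE M21 (GRCm38), which held 22090 of the 22574 symbols.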

Additional observations from a re-analysis of the deposited data

Results flagged for a closer look

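For 5 of the 10 genes, log2 ratios of CPM under the same contrast had opposite signs in 2 settings with both counting intervals excluding 0, and none of these differences was tested, since each setting has 1 library per group. The same count was not made over all genes, so no share stands beside it. For genes with many UMIs, such as Pde4b, the intervals exclude 0 at small ratios (-0.08 and 0.14 for MI over Sham in CM1). Adrb1 was lower under the KO label after Sham and higher after MI in CM1, and the ratio of KO over WT was higher by 0.54 after MI. The library labelled KO-MI, on which this and each value below rests, did not show a lower Nfe2l1 level than the library labelled WT-MI in CM1 or CM5; in CM4 it was at 32.0 CPM (11 UMIs, 95% interval 16.0 to 57.3) against 61.7 CPM (26 UMIs, 40.3 to 90.4), intervals that overlap.

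Pde4b appeared in 4 such contrasts. In CM1, its MI over Sham ratio was higher by 0.22 under the KO label than under the WT label. Under the KO label its MI over Sham ratio differed by -1.37 between CM5 and CM1 and by -0.83 between CM4 and CM1. In CM4, its ratio of KO over WT differed by -0.94 between MI and Sham, and that of Akap6 by -0.80. The CM4 sum of KO-Sham, which enters the last 3 of these differences, was the highest of the 4 for Pde4b, and the median of genes that span 100 kb or more was also higher in it than in WT-Sham, by 0.41.

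Under the KO label Adcy5 and Prkaca were higher after MI in CM1 and lower after MI in CM5, with CM5 minus CM1 differences of -1.87 for Adcy5 and -0.81 for Prkaca. The lower interval bound of Prkaca in CM1 lay at 0.01, so its sign there is close to the counting limit.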

How the results depend on the processing

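No paired analysis was possible because the labels give no replicate numbers and each group is 1 library, and no library could be left out for the same reason. Of the counts of members past the fold in the 7 comparisons of CM1 libraries or of populations over CM1, 55 alternatives stayed within 1.5 times the value reported and 18 moved. With TMM factors the count for WT-MI over WT-Sham in CM1 was 3 in place of 5, that for CM5 over CM1 was 4 in place of 2 and that for CM2 over CM1 was 3 in place of 0; the last shifted the median of all genes by -0.34. With thinned nuclei KO-MI over WT-MI gave 0 in place of 1 and WT-MI over WT-Sham 3. With the most frequent transferred label only, KO-MI over WT-MI gave 0 and KO-MI over KO-Sham 2 in place of 1. A minimum of 20 UMIs gave 0 for KO-MI over WT-MI. Nuclei under 10% mitochondrial UMIs gave 0 for KO-MI over KO-Sham, as did all nuclei together, and equal weight per nucleus gave 4 for CM5 over CM1. Nuclei of at least 3000 UMIs, chosen after the data were seen, gave 1 for KO-Sham over WT-Sham and 2 for KO-MI over KO-Sham. The setting that kept only nuclei with no UMI of other cell type markers left 1.54% of the nuclei, at most 74 in a sum and 0 in CM2 of WT-Sham, so that few genes could be measured: it gave 1 for KO-Sham over WT-Sham, 2 for KO-MI over WT-MI, 2 for WT-MI over WT-Sham, 0 for CM5 over CM1 and 0 for CM4 over CM1, and reversed Pde3a in WT-MI over WT-Sham (0.73) and the median of Adrb1 in CM5 over CM1 (0.93). Of the values of single genes 463 stayed, 82 moved and those 2 reversed.

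In CM5, alternatives added after the data were seen gave 3 (thinned) to 8 (TMM, or 3000 UMIs) members past the fold in place of 7 for WT-MI over WT-Sham and 5 to 6 in place of 6 for KO-MI over KO-Sham, apart from the marker setting, which gave 0 in both. Scaling by TMM moved the share of higher calls over all genes from 55.9% to 67.8% for KO-Sham over WT-Sham in CM1, from 46.6% to 60.5% in CM5, from 51.8% to 65.1% for WT-MI over WT-Sham in CM5, from 64.5% to 49.0% in CM4, from 39.4% to 50.4% for KO-MI over WT-MI in CM4, from 26.7% to 13.7% for CM5 over CM1 and from 61.5% to 7.87% for CM2 over CM1. The cause of these moves was not tested. Depth limits Adra1a everywhere and Adrb1 in CM5.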
